A study of Arabidopsis thaliana with 36 samples.

Results

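The response of Arabidopsis roots to low phosphate (Pi) was compared between the wild type (WT) and the otu5 mutant by asking, gene by gene, whether the change that low Pi brought was the same in both genotypes. All 12 RNA libraries of the series (of 36 samples in all) were used, and of the 33557 genes in the deposited table the 20411 with at least 1 RPKM in at least 3 libraries were tested. RPKM counts the reads of a gene per kilobase of its length and per fixed number of mapped reads. The quantity followed throughout is the interaction, the low Pi response in otu5 minus the low Pi response in WT, each a difference of means of log2(RPKM + 0.5). A negative interaction means that otu5 gained less, or lost more, than WT.

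The 4 groups held 3 libraries each and came from roots of Arabidopsis thaliana, harvested 14 days after germination in continuous light: WT on control medium, WT on low Pi medium, otu5 on control medium and otu5 on low Pi medium. The mutant was represented by the single genotype named otu5, whose allele the labels do not describe. The Pi concentrations of the media and the time spent on low Pi are not given in the labels either, and nothing says that the 3 libraries of a group were grown apart. The p-values below therefore cover no more than the scatter among these 12 libraries, which may be technical. The stated aim was to learn how OTU5 bears on root development and on its reprogramming when Pi is short.

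OTU5 belongs to the ovarian tumour proteases, enzymes that take ubiquitin off other proteins. When Pi runs short, roots switch on Pi transporters, secreted phosphatases and lipid-recycling enzymes through the PHR1 transcription factors and their SPX inhibitors, and they grow more and longer root hairs, the tubular outgrowths of epidermal cells that take up Pi from the soil. Root hair growth relies on basic helix-loop-helix factors such as RHD6, RSL4 and the LRL proteins, which switch on genes for the extensins, proline-rich proteins, expansins and xyloglucan-remodelling enzymes of the hair wall.

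The OTU5 transcript lay between 39.6 and 43.1 RPKM in the WT control libraries and between 38.9 and 40.6 in WT low Pi, and between 1.04 and 1.71 and between 0.432 and 1.003 in the corresponding otu5 libraries. It was thus low in all 6 mutant libraries, as labelled. Library sums of RPKM ran from 993382 to 1330830, and reads per library are unknown. The tissue label names roots while the text on RNA isolation names leaves. All 12 endodermis genes and all 13 suberin genes examined were present, and 29 photosynthesis genes together gave 1760 to 3260 RPKM per library. The culture condition label contradicts the title in 6 of the 12 libraries, and the titles were used.

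A single gene passed the test of genotype dependence. PAL4 (AT3G10340), which encodes a phenylalanine ammonia-lyase, the entry enzyme of the phenylpropanoid pathway, was called with limma and Benjamini-Hochberg adjustment, which is 0.00490% of the genes tested, and 0 genes were called in the negative direction (0.00%). At an unadjusted p under 0.05 there were 1117 genes (5.47%), of which 513 had positive interactions (2.51%) and 604 negative ones (2.96%). The smallest adjusted p was 0.0246 and the next was 0.214. The median standard error of the interaction was 0.13 and the 95% interval reached a median of 0.29 to either side on the log2 scale, so that for the typical gene a smaller difference between the responses could not be told from 0 even without adjustment.

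PAL4 was at 22.8, 22.2 and 22.8 RPKM in WT control, 16.7, 17.0 and 16.3 in WT low Pi, 16.7, 13.9 and 14.8 in otu5 control and 21.1, 19.7 and 21.8 in otu5 low Pi. The pattern crossed over, since the 3 WT libraries were lower on low Pi than on control medium and the 3 otu5 libraries were higher, with no overlap within either genotype. PAL4 fell by 0.43 in WT (limma adjusted p = 0.006) and rose by 0.45 in otu5 (adjusted p = 0.0033), an interaction of 0.88 (SE 0.09, 95% interval 0.68 to 1.08, adjusted p = 0.0246). On control medium PAL4 was lower in otu5 than in WT (-0.57, adjusted p = 0.0017) and on low Pi it was higher (0.31, adjusted p = 0.014). The call was lost when any of 7 libraries was left out, namely WT control replicates 1 and 3, otu5 control replicates 2 and 3, WT low Pi replicates 1 and 2 and otu5 low Pi replicate 1, although the interaction kept its sign. It was also lost with the replicate number as a block over all 4 groups (limma adjusted p = 0.0775) or within each genotype (adjusted p = 0.15), and held with the block in WT alone (adjusted p = 0.0357). Same-numbered control and low Pi libraries deviated together in WT and not in otu5. Of the 36 differently numbered pairs from different groups, 6 also correlated over 0.1, up to 0.25, so a shared number need not mark a pairing. With that last block, added after seeing the data, 15 genes were called instead of 1 (13 negative, 2 positive), 0.0735% of all genes. Among them were the root hair wall genes XTH14, AGP3, LRX1 and EXT10.

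**Figure D1:**
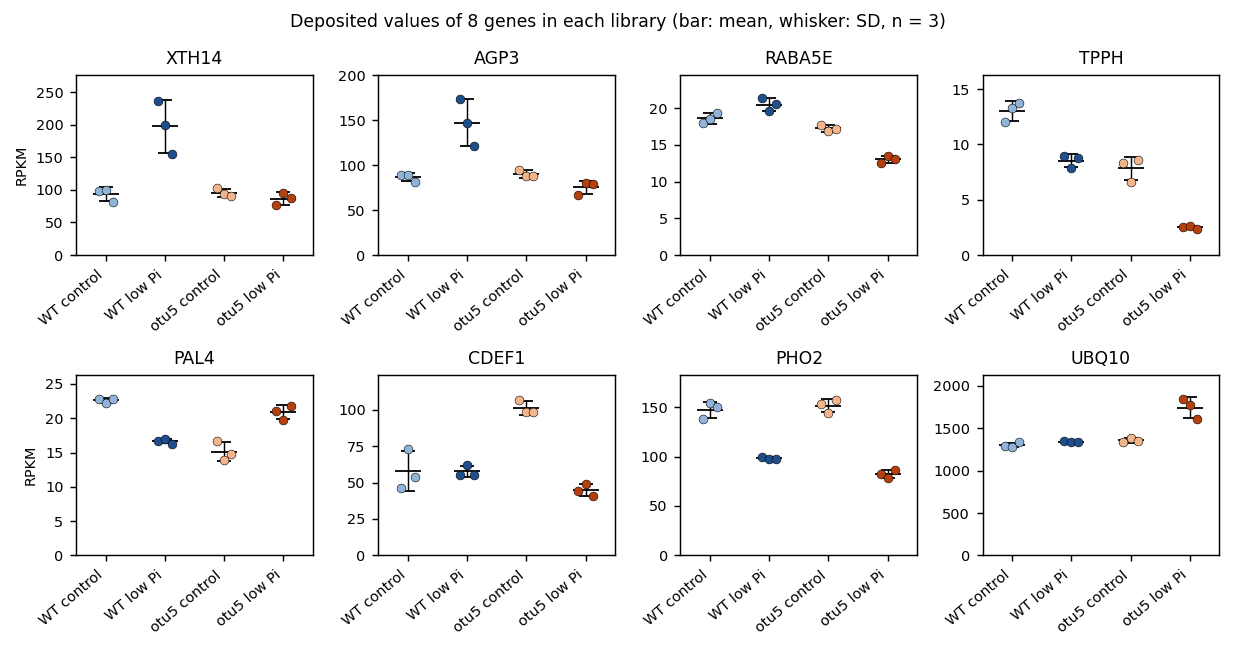
RPKM of 8 genes in each of the 12 libraries, with points for libraries, a bar for the group mean and whiskers for the SD (n = 3); axes start at 0. XTH14 and AGP3 were high in the 3 WT low Pi libraries alone, TPPH was lowest in otu5 low Pi, and PAL4 crossed over between the genotypes.

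The genes of the root hair wall formed the group that stood furthest from 0. This and the other lists were chosen with earlier results of these data known, so their counts are a description and no test. All 26 listed wall genes were tested, all 26 had interactions below 0 (against 50.0% of all genes), and their median interaction was -0.87 against -0.00 over all genes tested. In WT, 19 of the 26 rose on low Pi (2.55% of all genes rose) and 0 fell (1.74% of all genes fell), with a median response of 0.74. In otu5, only PRP1 and RHS18 rose (4.81% of all genes rose) and 0 fell (3.78% of all genes fell), with a median of -0.06. No wall gene passed the adjusted test of the interaction itself, while 4 did with the replicate block in WT (0.0735% of all genes). An unadjusted p under 0.05 was reached by 22 of the 26, all negative, where 2.96% of all genes did.

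The same genes can be read as differences between the genotypes. On control medium the median difference of otu5 from WT was 0.04 and a single wall gene, RHS8, was called, as lower (5.52% of all genes were lower, 4.85% higher). On low Pi the median difference was -0.84, 21 of the 26 were lower in otu5 (5.91% of all genes were lower) and 0 were higher (4.00% of all genes were higher). In 21 of the 26 the low Pi changes of the 3 WT libraries all exceeded those of the 3 otu5 libraries, which was so for 9.30% of all genes.

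XTH14 (AT4G25820), a xyloglucan endotransglucosylase/hydrolase that remodels the hair wall, was at 98.9, 100.5 and 80.8 RPKM in WT control, 237, 199.6 and 156 in WT low Pi, 103, 93.8 and 90.5 in otu5 control and 76.3, 95.8 and 87.7 in otu5 low Pi. The 3 WT low Pi libraries stood above the other 9, which overlapped one another. XTH14 rose by 1.06 in WT (limma adjusted p = 0.0035), its change in otu5 was -0.15 (adjusted p = 0.59), and the interaction was -1.21 (SE 0.20, 95% interval -1.66 to -0.76, unadjusted p = 0.00012, adjusted p = 0.22).

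AGP3 (AT4G40090), an arabinogalactan protein of the cell surface, was at 89.5, 89.5 and 81.2 RPKM in WT control, 173, 147 and 121 in WT low Pi, 94.9, 87.9 and 87.5 in otu5 control and 66.8, 79.8 and 79.4 in otu5 low Pi. Again the WT low Pi libraries alone were high, and the 3 otu5 low Pi libraries lay below all others. Its interaction was -1.01 (SE 0.16, 95% interval -1.37 to -0.65, limma adjusted p = 0.22), with a rise of 0.75 in WT (adjusted p = 0.0066) and a change of -0.26 in otu5 (adjusted p = 0.19).

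The other wall genes ranged widely in the size of the difference. XTH26, a further enzyme of the XTH family, had the most negative interaction of the list, -1.34 (95% interval -2.19 to -0.50); it was between 7.63 and 8.43 RPKM in WT control, between 19.9 and 39.6 in WT low Pi, between 3.37 and 4.66 in otu5 control and between 3.504 and 7.50 in otu5 low Pi. The extensins EXT6 and EXT10 had interactions of -1.21 and -1.17, and the leucine-rich repeat extensin LRX1 one of -0.91. PRP3, a proline-rich wall protein of root hairs, was between 63.1 and 72.7 RPKM in WT control, 87.4 and 136 in WT low Pi, 66.2 and 71.9 in otu5 control and 54.3 and 70.3 in otu5 low Pi (interaction -0.83, adjusted p = 0.43). Among the genes named for root-hair-specific expression, RHS12, RHS13 and RHS19 had interactions of -0.96, -0.92 and -1.04. EXPA7, an expansin that loosens the hair wall, was between 21.6 and 24.1 RPKM in WT control, 26.3 and 39.6 in WT low Pi, 19.9 and 22.2 in otu5 control and 22.8 and 26.4 in otu5 low Pi (interaction -0.25, 95% interval -0.63 to 0.14). The sources used here do not say how reads were divided between close relatives such as the extensins or XTH12, XTH13 and XTH14, so the split among them is uncertain.

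PRP1 and RHS18 differed from the rest in that they rose in both genotypes. PRP1, a proline-rich protein, was at 8.15, 7.26 and 7.05 RPKM in WT control, 24.8, 20.4 and 20.5 in WT low Pi, 9.66, 7.59 and 6.45 in otu5 control and 14.0, 22.6 and 14.1 in otu5 low Pi. It rose by 1.48 in WT (limma adjusted p = 0.0024) and by 1.03 in otu5 (adjusted p = 0.0099), and its interaction was -0.45 (95% interval -1.03 to 0.13). RHS18 rose by 1.303 and 0.70 (adjusted p = 0.0024 and 0.027). At the other end, CSLD3, a cellulose synthase-like enzyme needed for hair growth, and RHS8 had responses between -0.05 and 0.16 in both genotypes, with adjusted p of 0.50 or more.

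**Figure D2:**
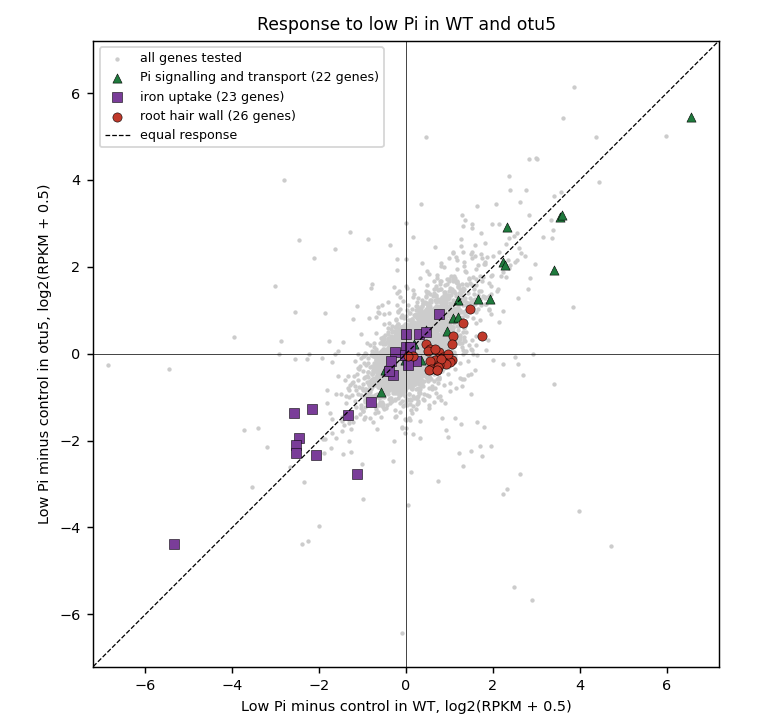
Low Pi response in otu5 (vertical axis) against that in WT (horizontal axis), both as differences of mean log2(RPKM + 0.5), for all 20411 genes tested and for 3 lists; the dashed line marks equal responses. Pi genes rose in both genotypes, with 16 of 22 below the dashed line, while root hair wall genes spread to the right along the zero line of otu5, with medians of 0.74 in WT and -0.06 in otu5.

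Genes of the growth machinery at the hair tip moved less. Of 21 tip growth genes, 18 had interactions below 0, 8 had an unadjusted p under 0.05, all negative (2.96% of all genes), and the median was -0.27. In WT 4 of the 21 rose (2.55% of all genes) and in otu5 0 did (4.81%). With the replicate block in WT, 7 rose in WT, where 550 of the 20411 genes tested did. On low Pi 8 were lower in otu5 than in WT (5.91%). COW1, a phosphatidylinositol transfer protein, was at 11.8, 12.1 and 10.6 RPKM in WT control, 22.8, 19.7 and 13.8 in WT low Pi, 9.62, 9.87 and 10.4 in otu5 control and 7.60, 9.07 and 8.43 in otu5 low Pi. Its interaction was -0.90 (95% interval -1.36 to -0.44, limma adjusted p = 0.39), and the 3 WT low Pi libraries were above the other 9. RHD2, the NADPH oxidase that makes reactive oxygen at the tip, had an interaction of -0.38 (95% interval -0.63 to -0.13); it rose in WT (0.41, adjusted p = 0.019) and its change in otu5 was 0.03 (adjusted p = 0.85). The potassium transporter TRH1, the GTPase ROP2 and RHD3 and RHD4 had interactions between -0.02 and 0.03.

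Among the 8 transcription factors that drive hair growth, the signs were split, with 4 interactions below 0 and a median of -0.06. RSL4, which sets the length of the hair, rose in otu5 (0.67, limma adjusted p = 0.017), and its change in WT was 0.48 (adjusted p = 0.078); the interaction was 0.19 (95% interval -0.24 to 0.62). It was at 4.35, 4.73 and 4.83 RPKM in WT control, 7.41, 6.32 and 6.35 in WT low Pi, 5.34, 5.36 and 4.65 in otu5 control and 8.06, 10.8 and 6.86 in otu5 low Pi. The low Pi libraries of both genotypes thus lay above their controls for this regulator, unlike XTH14 and AGP3. LRL3 went the other way: it was between 14.5 and 15.6 RPKM in otu5 low Pi and between 18.6 and 27.4 elsewhere, with an interaction of -0.62 (95% interval -0.90 to -0.34, adjusted p = 0.27) and a fall in otu5 of 0.36 (adjusted p = 0.035). RSL2 had an interaction of -0.63 (95% interval -1.16 to -0.10), and RHD6 one of -0.15 (unadjusted p = 0.28).

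Among the 10 genes that decide which epidermal cells become hairs, the median interaction was -0.04 and 7 were below 0 (50.0% of all genes). An unadjusted p under 0.05 was reached by 2 of the 10, both negative (2.96% of all genes): ETC1 and GL2, at -0.57 and -0.39. ETC1 encodes a small MYB protein that promotes hair fate, and GL2 is the homeodomain factor of non-hair cells. In bulk root RNA, fewer hair-forming cells and less RNA per hair cell cannot be told apart.

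**Figure D3:**
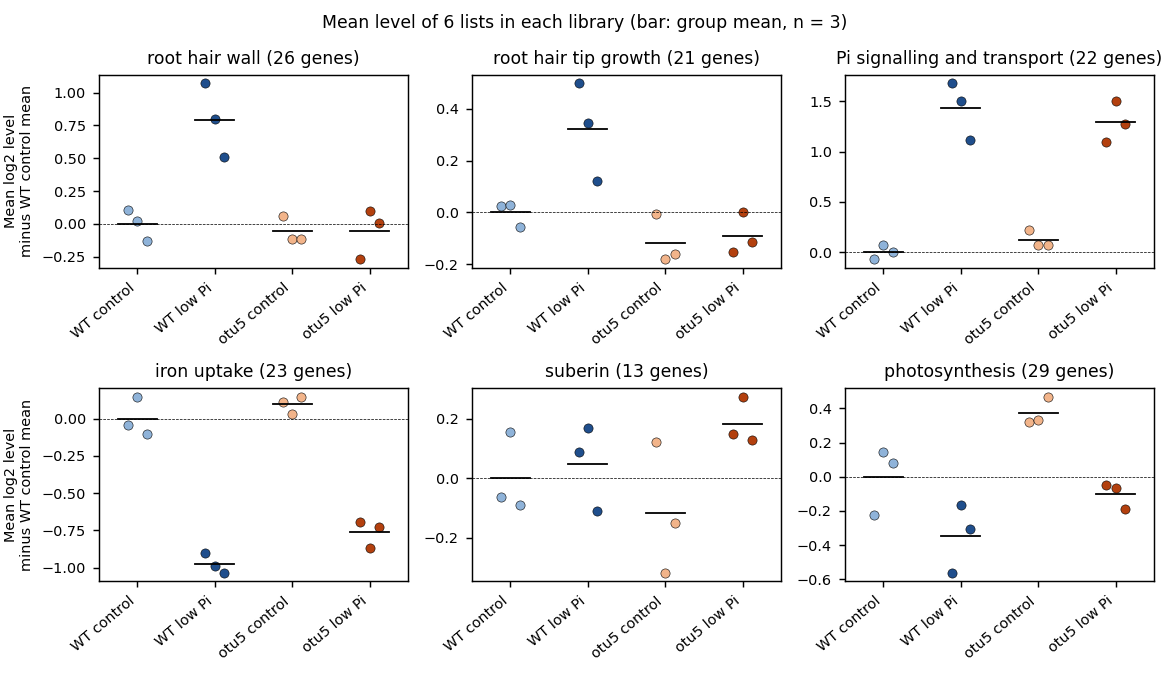
Mean log2(RPKM + 0.5) of the members of 6 lists in each library, minus the mean of the WT control libraries, with points for libraries and bars for group means (n = 3). Root hair wall genes were up in the 3 WT low Pi libraries alone, while Pi signalling genes were up in all 6 low Pi libraries.

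Library by library, the mean level of the wall genes over WT control was 1.07, 0.80 and 0.51 in WT low Pi and -0.27, 0.10 and 0.01 in otu5 low Pi. The Pi signalling and transport genes in the same libraries stood at 1.68, 1.50 and 1.117 in WT and at 1.096, 1.50 and 1.27 in otu5. Among the 3 WT low Pi libraries both lists were highest in replicate 1 and lowest in replicate 3, so these libraries differed in how far both had moved. WT low Pi replicate 2 and otu5 low Pi replicate 2 matched at 1.50 for the Pi genes while the wall genes were at 0.80 and 0.10. Without WT low Pi replicate 3, 17 genes instead of 1 passed the adjusted test, 0.0833% of all genes (12 negative, 5 positive). Among them were 4 of the 26 wall genes, XTH14, AGP3, RHS13 and AT4G26010, and the tip growth gene COW1. When libraries were weighted by their estimated quality, 147 genes were called, 0.72% of all genes (101 negative, 46 positive), and 14 of the 26 wall genes were among them. Across the alternatives, between 18 and 24 of the 26 wall genes had a negative interaction at an unadjusted p under 0.05. The share of all genes at that p, of either sign, ran from 3.99% to 18.6%. The library weights gave both the 24 and the 18.6%.

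Green tissue genes moved with the groups as well. The summed RPKM of 29 photosynthesis genes was 2219 to 2752 in WT control, 1760 to 2240 in WT low Pi, 3003 to 3260 in otu5 control and 2248 to 2325 in otu5 low Pi. Their interactions were small, with 28 of 29 below 0 (50.0% of all genes), a median of -0.11 and 0 at an unadjusted p under 0.05. With the replicate block in WT 4 reached that p, where 6.56% of all genes did, of either sign. In WT 2 fell on low Pi and in otu5 15 fell (1.74% and 3.78% of all genes). On control medium 11 were higher in otu5 than in WT, and on low Pi 3 (4.85% and 4.00% of all genes). The part that this tissue played in the root hair result was not tested. RCA, the activase of the carbon-fixing enzyme Rubisco, and LHCB4.1, a light-harvesting protein, had interactions of -0.18 and -0.22, both with 95% intervals that include 0. The summed RPKM of the 10 hair fate genes was 102 to 113 in WT control, 113 to 127 in WT low Pi, 102 to 113 in otu5 control and 108 to 114 in otu5 low Pi.

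**Figure D4:**
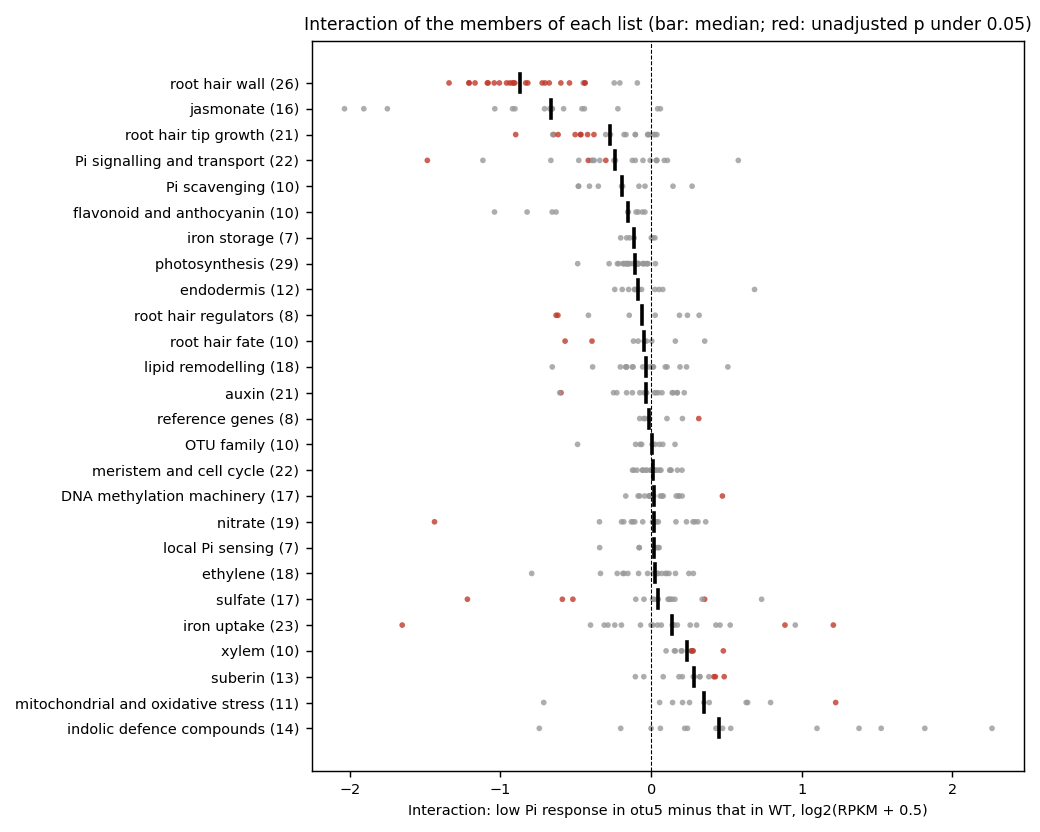
Interaction of each tested member of 26 lists (number tested in brackets), with a bar at the list median and red points where the unadjusted p was under 0.05. Root hair wall genes lie wholly to the left of 0 with a median of -0.87, and the xylem genes wholly to the right with a median of 0.24.

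Outside the lists, the negative interactions with the smallest p covered several kinds of genes. The 12 leading negative genes, which include XTH14 and AGP3, were chosen by their interaction in these same libraries, so their counts only describe them. In WT 7 rose and 2 fell (2.55% and 1.74% of all genes), and in otu5 0 rose and 7 fell (4.81% and 3.78%). On low Pi 10 were lower in otu5 than in WT (5.91% of all genes). RABA5E (AT1G05810), a small GTPase of membrane traffic, was at 18.0, 18.5 and 19.3 RPKM in WT control, 21.3, 19.5 and 20.6 in WT low Pi, 17.8, 16.8 and 17.2 in otu5 control and 12.5, 13.5 and 13.1 in otu5 low Pi. It fell in otu5 (-0.39, limma adjusted p = 0.0025), its change in WT was 0.14 (adjusted p = 0.17), and its interaction of -0.53 (95% interval -0.69 to -0.36) had the second smallest p of all genes (adjusted p = 0.214).

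TPPH (AT4G39770), a trehalose-6-phosphate phosphatase, was at 12.04, 13.3 and 13.8 RPKM in WT control, 8.93, 7.84 and 8.82 in WT low Pi, 8.29, 6.61 and 8.58 in otu5 control and 2.57, 2.65 and 2.36 in otu5 low Pi. Each of low Pi and the mutation went with lower values, and the libraries with both were lowest of all. TPPH fell by 0.58 in WT (adjusted p = 0.011) and by 1.45 in otu5 (adjusted p = 8.7e-05), an interaction of -0.87 (95% interval -1.18 to -0.55, limma adjusted p = 0.22). The serine carboxypeptidase-like gene scpl31 had the same arrangement, with falls of 0.67 and 1.74 and an interaction of -1.07 (95% interval -1.52 to -0.63).

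CDEF1 (AT4G30140), a cutinase that degrades the plant cuticle, was at 46.4, 73.1 and 54.0 RPKM in WT control, 55.3, 62.3 and 55.3 in WT low Pi, 107, 98.2 and 98.2 in otu5 control and 44.3, 49.1 and 40.7 in otu5 low Pi. The otu5 control libraries alone were high, and low Pi brought CDEF1 in otu5 down to or below the WT values (response -1.17, limma adjusted p = 0.0015; interaction -1.19, 95% interval -1.62 to -0.76). FHL, which carries the photoreceptor phytochrome A to the nucleus, showed the mirror image: WT control was low at 6.42, 6.74 and 5.64 RPKM, and the other 9 libraries lay between 11.2 and 15.4. FHL rose in WT by 1.02 (adjusted p = 0.00034), its change in otu5 was 0.25 (adjusted p = 0.14), and the interaction was -0.78 (95% interval -1.08 to -0.47).

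IPMI2, a subunit of the isopropylmalate isomerase of leucine and glucosinolate synthesis, was between 166 and 172 RPKM in WT control, between 167 and 189.7 in WT low Pi, between 117 and 123 in otu5 control and between 88.6 and 98.1 in otu5 low Pi (interaction -0.44, 95% interval -0.62 to -0.26). CCP3 rose in WT by 0.90 (limma adjusted p = 0.013), with an interaction of -1.21. The unnamed genes AT1G21440, AT5G26320 and AT3G09925 complete the 12, with interactions of -0.55, -1.17 and -0.996.

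The 12 leading positive genes were mostly genes that rose in otu5. They were chosen by their interaction in these same libraries, so their counts only describe them. In otu5 8 rose and 1 fell (4.81% and 3.78% of all genes), and in WT 0 rose and 5 fell (2.55% and 1.74%). On control medium 8 were lower in otu5 than in WT (5.52% of all genes). The gene that fell in otu5 was CYP82C4, also among the 5 that fell in WT, and every low Pi library lists it at 0. The 8 that rose include AT4G03376 and AT1G61665, listed at 0 in some libraries. HCT (AT5G48930), the hydroxycinnamoyl transferase that follows PAL on the way to lignin, was at 131, 126 and 126 RPKM in WT control, 136, 137 and 133 in WT low Pi, 115, 109 and 117 in otu5 control and 156, 148 and 150.4 in otu5 low Pi. It was lowest in the otu5 control libraries and highest in otu5 low Pi. HCT rose in otu5 (0.41, limma adjusted p = 0.0011), its change in WT was 0.08 (adjusted p = 0.34), and its interaction was 0.33 (95% interval 0.19 to 0.46, adjusted p = 0.25).

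WNK9, a protein kinase of the WNK family, was at 6.75, 4.60 and 5.47 RPKM in WT control, 4.09, 4.58 and 5.82 in WT low Pi, 3.71, 3.296 and 2.88 in otu5 control and 6.93, 6.93 and 6.88 in otu5 low Pi (interaction 1.17, 95% interval 0.71 to 1.62). LPAT3, a lysophosphatidyl acyltransferase of phospholipid synthesis, rose in otu5 by 0.77 (limma adjusted p = 0.0086), with a change of -0.23 in WT (adjusted p = 0.40) and an interaction of 1.001. Both were below WT on control medium in otu5, at -0.68 and -0.73 (adjusted p = 0.018 and 0.01). STP4, a monosaccharide transporter, fell in WT by 0.29 (adjusted p = 0.0052), and its change in otu5 was 0.02 (adjusted p = 0.84; interaction 0.31).

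AT5G57655 was between 94.0 and 100.01 RPKM in the otu5 low Pi libraries and between 68.4 and 77.3 in the other 9 (interaction 0.50, 95% interval 0.33 to 0.67, limma adjusted p = 0.22). AT4G03376 was listed at 0 in 9 libraries and at 2.87, 1.35 and 1.36 RPKM in otu5 low Pi. AT1G61665 was listed at 0 in the 3 otu5 control libraries and lay between 0.743 and 3.38 RPKM in the others. An exact 0 in this table can be a failed estimate, so no fold is given for either. AT5G02090, AT3G20340 and AT5G38610 had interactions of 0.66, 0.96 and 0.57.

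Genes of suberin and xylem, the barrier polymer and the water-conducting tissue of the root, had positive medians. Of 13 suberin genes 11 were above 0 with a median of 0.29, and 3 had an unadjusted p under 0.05, where 2.51% of all genes were positive at that p: GPAT5, FAR4 and CYP86B1, which make suberin monomers, at 0.42, 0.43 and 0.48. With the replicate block in WT there were 5 at that p, where 6.56% of all genes were, of either sign. GPAT5 was at 14.3, 15.6 and 13.6 RPKM in WT control, 15.8, 16.3 and 13.0 in WT low Pi, 15.3, 10.7 and 11.9 in otu5 control and 17.5, 18.3 and 16.5 in otu5 low Pi. It rose in otu5 (0.47, limma adjusted p = 0.041), and its change in WT was 0.05 (adjusted p = 0.88). The groups overlapped except that the otu5 low Pi libraries were the highest. All 10 xylem genes were above 0, with a median of 0.24. An unadjusted p under 0.05 was reached by 3, namely IRX9, of xylan synthesis, the laccase LAC17 and the protease XCP2, at 0.48, 0.27 and 0.28. The median response of the xylem genes was -0.25 in WT and -0.01 in otu5. On control medium their median difference of otu5 from WT was -0.23, and 4 were called lower (5.52% of all genes). On low Pi that median was 0.02, with 0 called lower or higher (5.91% and 4.00%). In 7 of 13 suberin genes and 7 of 10 xylem genes the changes of the otu5 libraries all exceeded those of the WT libraries, against 9.02% of all genes.

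The transcripts that report Pi starvation itself rose strongly in both genotypes. Of 22 Pi signalling and transport genes, 13 rose and 3 fell in WT (2.55% and 1.74% of all genes), and 13 rose and 3 fell in otu5 (4.81% and 3.78%). The median interaction was -0.24, and 16 of 22 were below 0 (50.0% of all genes). An unadjusted p under 0.05 was reached by 3, all negative (2.96% of all genes): the transporters PHT1;1 and PHT1;2, at -0.42 and -1.49, and PHO2 at -0.30. How reads were divided between PHT1;1 and PHT1;2 is not stated, so the split between them is uncertain. IPS1, the non-coding RNA that sequesters miR399, was at 0.237, 0.723 and 0.647 RPKM in WT control, 164, 99.3 and 52.7 in WT low Pi, 1.59, 2.03 and 1.52 in otu5 control and 62.5, 126 and 110.2 in otu5 low Pi. The low Pi libraries of the genotypes overlapped, and IPS1 rose by 6.56 in WT and by 5.45 in otu5 (limma adjusted p = 3.7e-05 and 0.00014). Its interaction was -1.117 with a 95% interval of -2.34 to 0.11, which includes 0 and also includes a difference of over 2 log2 units.

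AT4, a non-coding RNA related to IPS1, had an interaction of -0.38 (95% interval -1.17 to 0.41). SPX1, the Pi-dependent inhibitor of PHR1, had an interaction of -0.40 (95% interval -1.30 to 0.51), and SPX3 one of 0.58 (-0.59 to 1.74). In all control libraries SPX3 was at 0.377 RPKM or less, near the floor. The transporter PHT1;4 was between 18.6 and 21.6 RPKM in WT control, 73.7 and 128 in WT low Pi, 17.8 and 20.4 in otu5 control and 74.5 and 103 in otu5 low Pi, with an interaction of -0.13 (95% interval -0.68 to 0.43). The phosphatases PAP17 and PS2 had interactions of -0.48 (-1.12 to 0.15) and -0.48 (-1.55 to 0.59). Among the lipid-recycling genes, MGD3, of galactolipid synthesis, was at 0.23 (-0.88 to 1.35), PLDP2, a phospholipase D, at -0.01 (-0.69 to 0.67), GDPD2, a glycerophosphodiester phosphodiesterase, at -0.66 (-1.40 to 0.09) and AT1G73600 at -0.39 (-1.12 to 0.35). These intervals bound the difference between the genotypes but do not show that their responses were the same. The whole lists had medians of -0.19 over 10 scavenging genes and -0.03 over 18 lipid genes, with 0 of either at an unadjusted p under 0.05.

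PHO2 was the Pi gene with the clearest difference. It encodes a ubiquitin-conjugating enzyme that removes Pi transporters and is silenced by miR399 on low Pi. PHO2 was between 138 and 154 RPKM in WT control, 97.1 and 99.96 in WT low Pi, 144 and 157 in otu5 control and 78.2 and 86.0 in otu5 low Pi, so the low Pi groups did not overlap. It fell by 0.58 in WT and by 0.88 in otu5 (limma adjusted p = 0.00039 and 5.8e-05), an interaction of -0.30 (95% interval -0.48 to -0.13, unadjusted p = 0.0031, adjusted p = 0.45). ALMT1, the malate transporter of local Pi sensing, rose in both genotypes, with an interaction of -0.34 (95% interval -0.88 to 0.20).

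**Figure D5:**
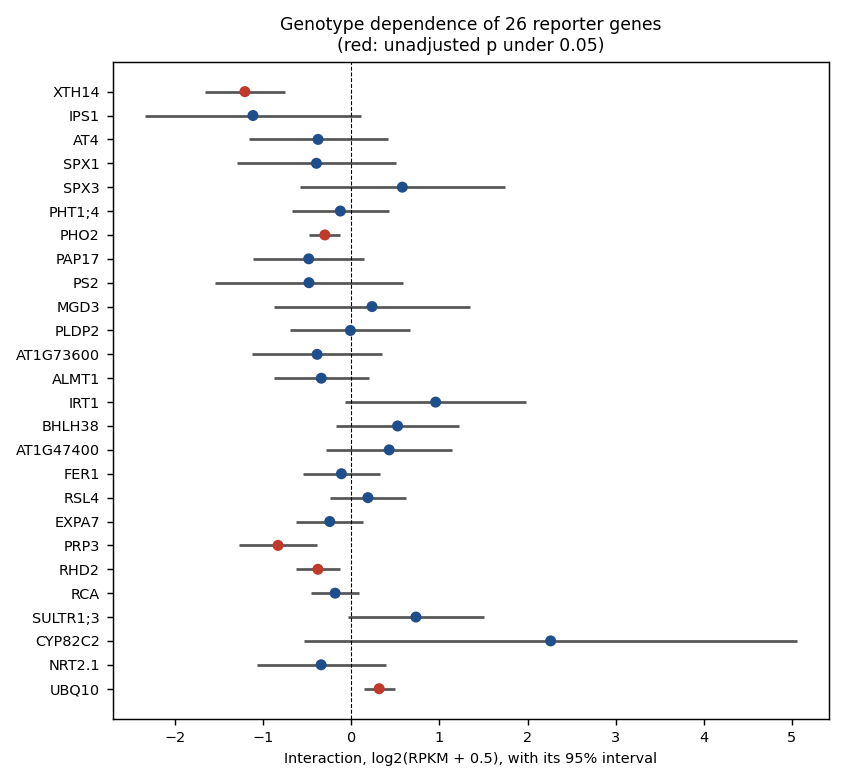
Interaction of the 26 reporter genes with its 95% interval on the log2(RPKM + 0.5) scale; red points have an unadjusted p under 0.05. The 5 such genes are XTH14, PHO2, PRP3 and RHD2 on the negative side and UBQ10 on the positive side, and the other 21 intervals include 0.

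Over the whole response, the larger change was more often the one in otu5. Genes were chosen by the average of both responses. In this balanced design its estimate is uncorrelated with the interaction only if both genotypes scatter alike, which was not tested. Both tests share an estimate of spread, so choosing by the average can raise the share of small interaction p. The average called 3707 genes (18.2%), 1969 rising (9.65%) and 1738 falling (8.52%). Over these genes the interaction taken in the direction of the response had a median of 0.05, and 2285 of them (61.6%) had the larger response in otu5 and 1422 (38.4%) in WT. Among the 318 that changed at least 2-fold on average, a subset chosen after seeing the data, the median was 0.15 and 58.2% were larger in otu5. At an unadjusted p under 0.05 there were 350 of the 3707 (9.44%, against 5.47% of all genes), 221 larger and 129 smaller in otu5. None of them passed the adjusted test. The share smaller in otu5 moved with single libraries, from 27.6% without otu5 low Pi replicate 3 to 49.0% without otu5 low Pi replicate 2. Separately, low Pi against control called 875 genes in WT (4.29%) and 1754 in otu5 (8.59%), a difference in counts that is no test of the difference in response.

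Where the 604 negative genes at an unadjusted p under 0.05 differed can be read from the single comparisons. Of these genes 114 rose in WT (2.55% of all genes), 160 fell in otu5 (3.78%), and 332 were called in neither. On low Pi 204 of them were lower in otu5 (5.91% of all genes), and on control medium 154 were higher (4.85%). Of the 513 positive genes 172 rose in otu5 (4.81% of all genes), 55 fell in WT (1.74%) and 287 were called in neither. These counts share libraries with the interaction that chose the genes and describe it without adding to it.

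Of 23 iron uptake genes, 10 fell and 2 rose in WT (1.74% and 2.55% of all genes), and 12 fell and 2 rose in otu5 (3.78% and 4.81%), and the interactions went both ways around a median of 0.14. CYP82C4, which makes the iron-chelating coumarin sideretin, was at 2.23, 2.83 and 2.47 RPKM in WT control and 0.793, 0.705 and 0.900 in otu5 control, while all 6 low Pi libraries list it at 0. It was lower in otu5 on control medium (-1.21, limma adjusted p = 0.0019), and no response is given for a gene listed at 0. FRO2, the ferric reductase, was at 7.83, 9.06 and 9.02 RPKM in WT control, 1.90, 1.31 and 1.48 in WT low Pi, 4.64, 3.74 and 7.54 in otu5 control and 1.74, 1.60 and 2.18 in otu5 low Pi (interaction 0.89, 95% interval 0.24 to 1.54). IRT1, the iron transporter, had an interaction of 0.96 (-0.07 to 1.98), but it was at 0.592 RPKM or less in all 6 low Pi libraries. Its difference of otu5 from WT was -1.03 on control medium and -0.07 on low Pi. AT2G30766 had the opposite sign at -1.65 (-3.22 to -0.09). BHLH38, a transcription factor of the iron uptake response, fell in both genotypes with an interaction of 0.52 (-0.18 to 1.22), as did AT1G47400 at 0.43 (-0.28 to 1.14). In all low Pi libraries BHLH38 was at 0.526 RPKM or less, near the floor. The iron storage ferritins FER1 and FER3 rose in both, with interactions of -0.11 (-0.55 to 0.32) and -0.16 (-0.37 to 0.04).

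Some transporters of other nutrients gave large values, while the sulfate and nitrate lists had median interactions of 0.05 and 0.02. Of 17 sulfate genes, 3 were negative and 1 was positive at an unadjusted p under 0.05 (2.96% and 2.51% of all genes). Of 19 nitrate genes, 1 was negative at that p and 0 were positive. SULTR2;1, a low-affinity sulfate transporter of the vasculature, was at 10.7, 20.9 and 16.4 RPKM in WT control, 31.2, 40.3 and 47.5 in WT low Pi, 35.5, 35.01 and 35.6 in otu5 control and 41.9, 44.4 and 28.9 in otu5 low Pi. WT control stood below the other 9 libraries, and the interaction was -1.22 (95% interval -1.97 to -0.47, limma adjusted p = 0.54). SULTR3;5, its partner in sulfate loading, was between 43.2 and 46.4 RPKM in WT control, 28.0 and 31.5 in WT low Pi, 29.2 and 32.9 in otu5 control and 12.3 and 14.9 in otu5 low Pi (interaction -0.52, 95% interval -0.76 to -0.27). The high-affinity nitrate transporter NRT2.2 was between 0.104 and 0.641 RPKM in the 6 WT libraries, 3.40 and 6.59 in otu5 control and 1.72 and 2.42 in otu5 low Pi (interaction -1.44, 95% interval -2.22 to -0.66, adjusted p = 0.44). Its neighbour in function NRT2.1 had an interaction of -0.34 (-1.07 to 0.39), and the sulfate transporter SULTR1;3 one of 0.73 (-0.04 to 1.50).

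Several stress genes had wide intervals, with libraries of one group far apart. CYP82C2, of the indolic defence compounds, was at 2.98, 9.62 and 12.7 RPKM in WT low Pi and at 73.4, 138 and 7.13 in otu5 low Pi, against 0.173 or less in all control libraries. Its interaction was 2.26 with a 95% interval of -0.53 to 5.06, and otu5 low Pi replicate 3 lay within the WT values. All 14 indolic genes had a median of 0.45 with 0 at an unadjusted p under 0.05. The 16 jasmonate genes had a median of -0.66, with 14 below 0 and 0 at that p. With the replicate block in WT 2 reached it, where 6.56% of all genes did, of either sign. JAZ8, a repressor of jasmonate signalling, had a 95% interval of -3.65 to 0.15. UGT74E2, a glucosyltransferase induced by oxidative stress, was at 1.97, 1.89 and 1.75 RPKM in WT control, 2.29, 3.096 and 6.39 in WT low Pi, 4.80, 6.17 and 3.40 in otu5 control and 29.8, 17.9 and 16.0 in otu5 low Pi (interaction 1.22, 95% interval 0.20 to 2.25, limma adjusted p = 0.85).

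IAA19, a repressor of auxin signalling, was at 9.82, 7.96 and 9.32 RPKM in WT control, 9.63, 8.88 and 8.58 in WT low Pi, 9.35, 6.82 and 7.72 in otu5 control and 5.18, 5.79 and 4.31 in otu5 low Pi. The 3 otu5 low Pi libraries lay below the other 9. IAA19 fell in otu5 (-0.60, limma adjusted p = 0.02), its change in WT was 0.00 (adjusted p = 0.995), and its interaction was -0.60 (95% interval -0.999 to -0.198, adjusted p = 0.635); it was the single auxin gene of 21 at an unadjusted p under 0.05. DML3, a DNA demethylase, was between 1.67 and 2.11 RPKM in WT control, 1.18 and 1.29 in WT low Pi, 1.95 and 2.14 in otu5 control and 1.92 and 2.27 in otu5 low Pi (interaction 0.47, 95% interval 0.13 to 0.82). The members with the smallest p of 5 other lists had 95% intervals that include 0: EBF2, of ethylene signalling, at 0.28, CYP79B2, of indole glucosinolate synthesis, at 0.53, MYB75, which activates anthocyanin genes, at -1.04, CASP5, of the Casparian strip, at 0.69, and CDKB1;1, a cell cycle kinase, at 0.20.

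UBQ10, a polyubiquitin gene often used as a reference, was at 1291, 1284 and 1332 RPKM in WT control, 1355, 1334 and 1335 in WT low Pi, 1332, 1388 and 1349 in otu5 control and 1844, 1774 and 1607 in otu5 low Pi. The 3 otu5 low Pi libraries stood above the other 9, which lay close together. UBQ10 rose in otu5 (0.36, limma adjusted p = 0.005), its change in WT was 0.04 (adjusted p = 0.74), and the interaction was 0.32 (95% interval 0.14 to 0.49, unadjusted p = 0.0021, adjusted p = 0.44). Polyubiquitin genes are near-identical to one another, so its value is uncertain in how reads were shared. The other 7 reference genes had interactions between -0.08 and 0.21.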

How the data were processed

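The values are the authors' deposited RPKM, 1 column per library, with TopHat2 2.0.4, Cuffdiff and TAIR10 named in the submitters' processing notes; the sources used here do not give the scaling between libraries. The 16 chromatin and 8 methylation samples were not analysed here. Log2(RPKM + 0.5) was fitted with limma 3.58.1 in R 4.3.3 as 4 group means over 12 libraries (8 residual degrees of freedom, empirical Bayes with trend and robust estimation), after a filter of 1 RPKM in 3 libraries, with Benjamini-Hochberg adjustment over 20411 genes and a threshold of 0.05. Fold changes on this scale understate the change of low genes. Depth is unknown, so no counting interval is given. The procedure was tested on simulated data. Over genes, deviations from the group means of same-numbered control and low Pi libraries correlated at 0.11 to 0.26 in WT (3 of 3 pairs over 0.1) and at -0.11 to -0.0040 in otu5 (0 of 3); the labels do not say what a number marks, and a fit with the replicate number as a block in WT alone was added after seeing the data. Gene names come from a RefSeq table (assembly TAIR10.1) that matched 97.8% of identifiers. Of 421 genes on 26 lists, 399 were tested. Named are OTU5, the 12 genes of each sign with the smallest interaction p, 26 reporters and each list's member with the smallest p; list members beyond these were chosen after their values were seen. Members and lists were chosen with earlier results of these data known.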

Additional observations from a re-analysis of the deposited data

Results flagged for a closer look

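PAL4 is listed here because the test of the difference between the genotypes itself passed the threshold: its low Pi response differed between otu5 and WT by 0.88 on the log2(RPKM + 0.5) scale (limma adjusted p = 0.0246), lower on low Pi in 3 of 3 WT libraries and higher in 3 of 3 otu5 libraries. With the replicate block the adjusted p was 0.0775 over all 4 groups and 0.15 within each genotype, past the threshold in neither, and 0.0357 within WT alone.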

How the results depend on the processing

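The table gives no read counts, each group has 3 libraries, and the labels do not say that a number pairs them, so the interaction rests on 8 residual degrees of freedom. The count of interaction calls was 2 with no filter on low values and 2 without trend and robust estimation. In both fits the gene called besides PAL4 was CYP82C4, which every low Pi library lists at 0. Estimated library weights gave 147 interaction calls. Those weights also gave 7084 average calls, 2005 in WT, 7631 in otu5, and 6795 and 4382 between genotypes on control and low Pi medium. The count was 1 under the other pseudocounts, scalings and filters.

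Over all 18 same-numbered pairs of libraries the deviations correlated between -0.15 and 0.26, 6 of them over 0.1. The 3 WT pairs of control and low Pi were all over 0.1 and the 3 otu5 pairs all below 0. The 36 differently numbered pairs lay between -0.21 and 0.25, with 6 over 0.1. With a replicate block the interaction calls were 0 over all 4 groups, 0 within each genotype and 15 within WT alone; in the last 2 fits differences between genotypes on one medium could not be estimated.

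Leaving out 1 library gave between 0 and 17 interaction calls, between 242 and 1350 calls in WT, between 503 and 2494 in otu5, between 702 and 2251 between genotypes on control medium and between 830 and 2251 on low Pi. Median interactions then lay between 0.0368 and 0.16 for iron uptake, -0.0563 and 0.0339 for auxin, -0.00685 and 0.16 for sulfate, -0.0797 and 0.0396 for local Pi sensing, -0.0301 and 0.0264 for reference genes, -0.42 and -0.17 for root hair tip growth, -0.16 and 0.0397 for iron storage and -1.02 and -0.68 for root hair wall. The auxin median was 0.00029 under quantile normalization. The median over responsive genes was 0.15 for those that changed at least 2-fold, a subset added after seeing the data.

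Single genes near 0 changed sign: PLDP2 was 0.016 with a pseudocount of 1, 0.057 under quantile normalization and between -0.21 and 0.22 with 1 library left out, MGD3 was -0.18 with library weights and between -0.16 and 0.68, PHT1;4 lay between -0.31 and 0.0814, and FER1 between -0.25 and 0.0397. The cause was not tested.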

Other observations

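Genes of aliphatic glucosinolate synthesis, the pathway that turns methionine into defence compounds of the cabbage family, also had negative interactions. The 14 genes were chosen after their values were seen, starting from IPMI2, so their counts are a description only. All 14 were below 0 (50.0% of all genes), and the median was -0.45. An unadjusted p under 0.05 was reached by 12, all negative (2.96% of all genes). In WT 3 of the 14 rose and 0 fell on low Pi (2.55% and 1.74% of all genes). In otu5 0 rose and 5 fell (4.81% and 3.78%). BCAT4, which starts the chain elongation of methionine, was at 288, 404 and 352 RPKM in WT control, 442, 461 and 469.6 in WT low Pi, 278, 289.7 and 273 in otu5 control and 251, 249.8 and 227 in otu5 low Pi, with an interaction of -0.62 (limma unadjusted p = 0.0012). GSTF11 was between 38.2 and 53.5 RPKM in WT control, 56.9 and 62.6 in WT low Pi, 35.7 and 40.4 in otu5 control and 30.8 and 32.7 in otu5 low Pi. MYB28, the transcription factor that activates these genes, had an interaction of -0.34, and CYP79F1 and AOP2 had -0.29 and -0.05 at unadjusted p of 0.46 and 0.87. The 3 otu5 low Pi libraries were the lowest of the 12 for BCAT4 and GSTF11.

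The zinc transporter gene ZIP9, likewise chosen after its values were seen, was at 1.09, 1.04 and 1.03 RPKM in WT control, 5.07, 3.93 and 3.77 in WT low Pi, 1.06, 1.43 and 0.972 in otu5 control and 1.29, 2.33 and 1.51 in otu5 low Pi, an interaction of -1.20. The WT low Pi libraries stood above the other 9.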
